A study of Mus musculus with 16 samples.

Results

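Slc6a12, Slc5a3, Slc6a6 and Nfat5 are the carriers of 3 organic osmolytes in the kidney and the transcription factor that responds to high tonicity. The 4 genes were taken by symbol from a table of 57186 genes, each symbol having 1 row, and all 4 were among the 25408 genes with at least 100 counts over all libraries. They were chosen by name and by the higher counts of Slc6a12 in diabetic libraries, with results of these data in view, so their diabetic against non-diabetic differences are given as a description without a test.

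RNA was sequenced from whole kidneys of 16 male mice, 4 in each of 4 groups, to ask how vitamin B12 affects the early diabetic kidney. All mice, controls included, were homozygous for the Elmo1 H allele, which raises expression of Elmo1, an activator of Rac signaling. Non-diabetic mice (ND) were Elmo1H/H Ins2+/+, and diabetic mice (D) were Elmo1H/H Ins2Akita/+ (written Elmo1H/H Ins2A/+ in the sample labels), carrying an insulin allele whose misfolded product damages the beta cell. Untreated mice were labelled control (C), and treated mice (B12) drank vitamin B12 at 10 mg per kg body weight per day from 8 weeks of age. Kidneys were taken at 16 weeks of age after a short fast. The titles call the libraries of a group biological replicates, and p-values measure the spread between them. The labels give the course of B12 as 16 weeks, whereas those ages leave 8 weeks.

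Cells of the renal medulla live in a salty, urea-rich fluid and hold their volume by filling with small uncharged or zwitterionic solutes. Betaine, myo-inositol and taurine enter through sodium-coupled carriers, and sorbitol is made from glucose by aldose reductase. NFAT5, also called TonEBP, moves to the nucleus at high tonicity and binds the tonicity enhancer (TonE) in genes for these carriers, for aldose reductase and for heat shock proteins.

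Slc6a12 encodes the betaine and GABA transporter BGT1 and lies at chr6:121320035-121342734 on the plus strand of GRCm39, overlapping no other annotated gene. The 250 bases before a RefSeq start of Slc6a12 are shown because they hold a match to the TonE consensus, in capitals, from 75 to 65 bases before that start. The second sequence is the 250 bases before the start of Slc6a12-201, the transcript given most of the gene's counts, and it holds no match.
Slc6a12 RefSeq start, chr6:121319283-121319532, plus strand: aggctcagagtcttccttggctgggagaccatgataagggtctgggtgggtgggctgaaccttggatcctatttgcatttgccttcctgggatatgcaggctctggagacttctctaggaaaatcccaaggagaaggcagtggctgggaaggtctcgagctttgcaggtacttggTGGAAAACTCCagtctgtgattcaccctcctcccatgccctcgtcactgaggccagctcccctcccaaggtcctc
Slc6a12-201 start, chr6:121323327-121323576, plus strand: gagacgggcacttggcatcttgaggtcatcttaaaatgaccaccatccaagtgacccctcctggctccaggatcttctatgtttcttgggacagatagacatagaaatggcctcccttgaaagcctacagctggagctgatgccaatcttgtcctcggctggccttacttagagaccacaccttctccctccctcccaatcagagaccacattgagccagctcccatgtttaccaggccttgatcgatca

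Nfat5 lies at chr8:108020102-108106149 on the plus strand, and the 250 bases before its start are shown because the gene codes for the factor that reads TonE.
Nfat5 start, chr8:108019852-108020101, plus strand: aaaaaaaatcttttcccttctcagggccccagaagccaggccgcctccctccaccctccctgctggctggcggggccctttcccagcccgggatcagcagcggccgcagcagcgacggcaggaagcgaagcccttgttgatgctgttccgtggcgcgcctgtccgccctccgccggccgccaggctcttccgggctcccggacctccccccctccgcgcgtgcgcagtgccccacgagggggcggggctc

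The sequences before the RefSeq start of Slc6a12 and before Nfat5 come from RefSeq promoter windows of build GRCm38.p6, placed on GRCm39 by an exact match that occurred once. The sequence before Slc6a12-201 was read from GRCm39. RefSeq windows run from 250 bases before to 50 after a start, and 3 of the 4 members had one (5 for Slc6a12, 1 each for Slc5a3 and Nfat5). Both strands were searched for TGGAAA, the invariant core of TonE, and for the TonE consensus, which contains that core. One of the 7 windows held either motif, the first Slc6a12 window. Over all 32851 windows, 21.4% held TGGAAA and 4.96% held the TonE consensus, so a single match among 7 windows is a description of letters only. The RefSeq start with the match lies 502 bases before Slc6a12-205, the most upstream start in the GENCODE annotation of the gene.

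Library totals ranged from 65271308 to 91771136 counts, and log2 CPM (counts scaled to a common library total) of any pair of libraries correlated at 0.972 to 0.985. Proximal tubule markers (Lrp2, Slc34a1, Slc5a2, Slc5a12, Kap) summed to 16272 to 28351 CPM and none was at 0, while the adrenal marker Cyp11b1 was at 0 in all libraries. The group means accompanying the published work were matched most closely by sets of libraries other than the labelled ones. In those sets the library labelled ND_B12 4 sat with diabetic libraries, the library labelled D_C 1 sat with non-diabetic libraries, and the libraries labelled D_B12 formed the untreated diabetic set. The groups below are those of the labels, results are given with and without ND_B12 4 and D_C 1, and every group holds different libraries in that other record. There ND_B12 1 sits with the ND_C libraries, ND_C 3 and D_C 1 sit with the ND_B12 libraries, and ND_B12 4 sits with the D_C libraries. The B12 and diabetes differences within treatments and the interaction below therefore hold for the labels only, and the sign of the B12 difference among diabetic libraries would turn. Dates in the library names ran nearly in group order, so date and group cannot be told apart for most comparisons.

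Slc6a12 was the member with the largest difference between diabetic and non-diabetic kidneys. Normalized counts, scaled by the median of ratios, were 61.9, 67.6, 46.4 and 71.98 in ND_C 1 to 4. They were 57.9, 51.6, 16.2 and 177 in ND_B12 1 to 4. Every non-diabetic library but ND_B12 4 was at or below 71.98, and ND_B12 4 stood in the diabetic range. The values in D_C 1 to 4 were 113, 580, 261 and 442, and those in D_B12 1 to 4 were 420, 189, 223 and 89.9. All 4 D_C libraries were above all 4 ND_C libraries, a separation that 4.86% of tested genes showed in that direction. In the treated groups 15 of 16 pairs were higher in the diabetic library, the exception being ND_B12 4 above D_B12 4.

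Group means of Slc6a12 were 349 ± 205 (SD, n = 4) in D_C, 230 ± 139 in D_B12, 75.7 ± 70.0 in ND_B12 and 62.0 ± 11.2 in ND_C. Neighbours in that order, apart from D_B12 and ND_B12, differed by less than the larger of their SDs. The fitted log2 fold change with diabetes was 2.49 (SE 0.61) in untreated kidneys, 1.59 (SE 0.59) in B12-treated kidneys and 2.04 (SE 0.42) averaged over treatments. Over all 16 libraries 62 of 64 diabetic against non-diabetic pairs were higher in the diabetic library, with a ratio of means of 4.21. Without ND_B12 4 and D_C 1 the groups did not overlap, all 49 pairs were higher, the ratio of means was 5.90 and the averaged log2 fold change was 2.61 (SE 0.34). Such a separation was found upward for 1.19% of tested genes, and for 0.0551% with all 16 libraries, where Slc6a12 overlapped. In whole kidney, a change in the number of cells that express a gene and a change of its RNA per cell cannot be told apart.

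**Figure D1:**
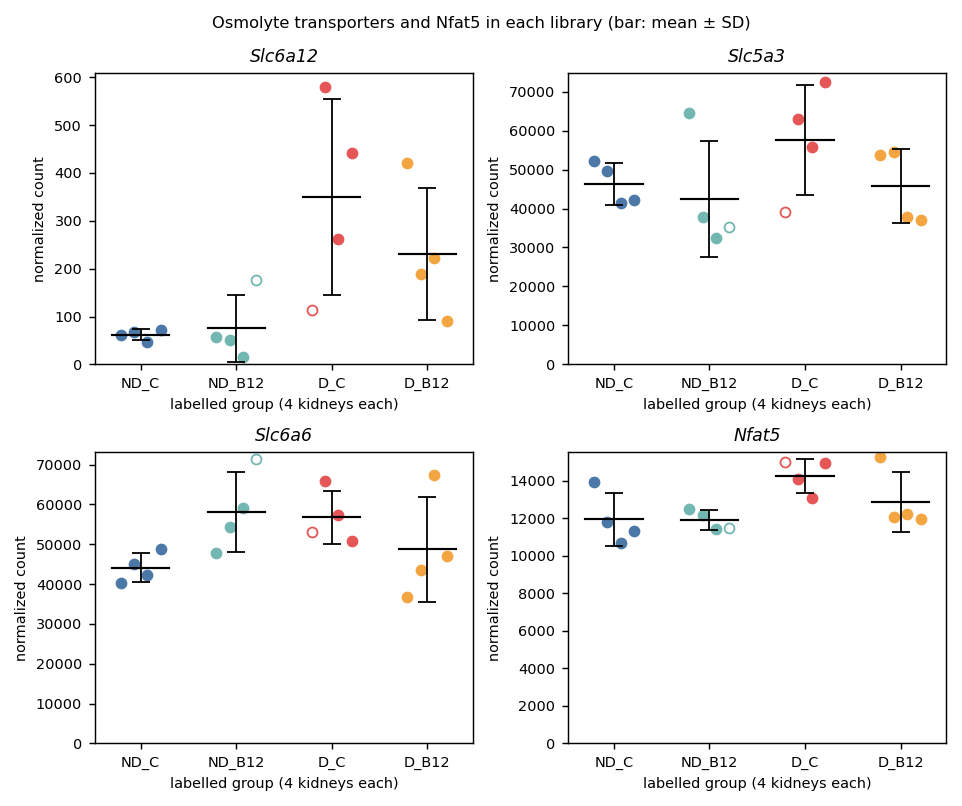
Normalized counts (vertical axes, from 0) of the 4 genes in each of the 16 libraries by labelled group, with black bars for the mean ± SD of 4 libraries and open circles for ND_B12 4 and D_C 1. Slc6a12 runs from 16.2 to 177 in non-diabetic and from 89.9 to 580 in diabetic libraries. Of 64 diabetic against non-diabetic pairs, 62 are higher in the diabetic library for Slc6a12. That number is 55 for Nfat5, 44 for Slc5a3 and 35 for Slc6a6.

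Slc6a12 is a low gene in whole kidney, which limits its precision. Its raw counts were 13 to 183 in non-diabetic and 74 to 617 in diabetic libraries, of at least 65271308 counted in each. Compared per length, as TPM (transcript counts scaled by length and by library), the level of Slc6a12 averaged 0.605 ± 0.234 (SD, n = 4) in ND_C and 3.11 ± 1.73 in D_C. In all 16 libraries the order of TPM levels was Slc6a6, Slc5a3, Nfat5 and Slc6a12. Median TPM over the 16 libraries was 178 for Slc6a6, 82.3 for Slc5a3, 30.1 for Nfat5 and 1.10 for Slc6a12, and the ranges of the 4 genes did not overlap except where Slc6a6 (139.8 to 252 TPM) met the upper end of Slc5a3 (55.5 to 146 TPM). The median TPM ratio of the taurine to the betaine carrier was 332 in non-diabetic and 87.2 in diabetic libraries.

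The estimated counts of Slc6a12 fell on 8 of its 10 annotated transcripts, of which Slc6a12-201 took 74.4% and Slc6a12-205, which starts further upstream, took 23.1%. In diabetic libraries Slc6a12-201 held 43.3% to 89.5% of the counts and Slc6a12-205 held 9.13% to 55.3%. In non-diabetic libraries the split ran from 0 to 100% for each transcript, with whole libraries given to 1 start at 13 to 183 counts. Summed over libraries, Slc6a12-201 had 1233 counts in D_C, 650 in D_B12, 135 in ND_C and 247 in ND_B12. Slc6a12-205 had 285, 270, 97 and 52 counts in the same groups, so the counts of both transcripts were higher in the diabetic groups.

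**Figure D2:**
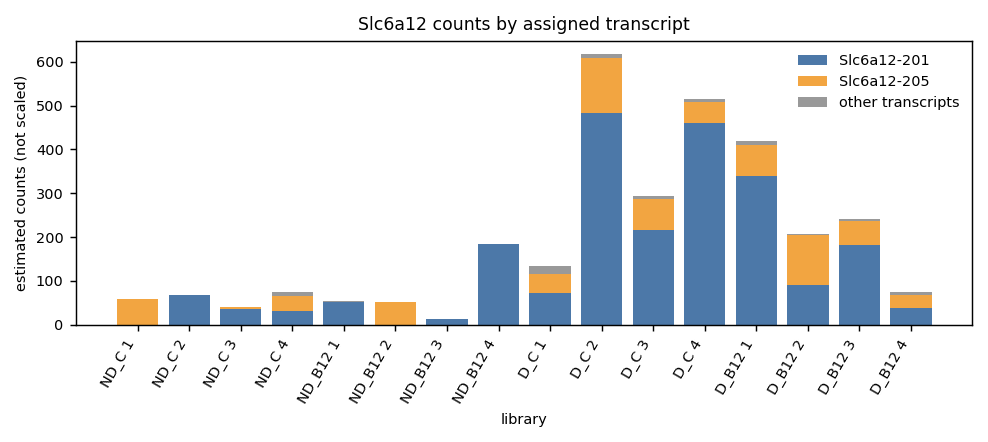
Estimated counts of Slc6a12 (vertical axis, from 0, not scaled for library size) in each library, stacked by the transcript they were assigned to. Slc6a12-201 (blue) has 1233 counts in D_C and 135 in ND_C, and several non-diabetic libraries are given to 1 transcript only.

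Slc5a3 encodes the sodium and myo-inositol cotransporter SMIT1, and it was high in every library. It lies at chr16:91854965-91884361 on the plus strand and shares its first base and strand with Mrps6, a mitochondrial ribosomal protein gene. The genes share 404 of the 11158 exon bases of Slc5a3, or 3.62%, so reads in that stretch cannot be given to either with certainty. Slc5a3-201 took 99.996% of its counts.

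Normalized counts of Slc5a3 were 52186, 49623, 41335 and 42221 in ND_C 1 to 4. They were 64488, 37805, 32384 and 35272 in ND_B12, where the first library stood above the other 3. They were 39081, 63031, 55774 and 72475 in D_C, and 53665, 54391, 37950 and 36961 in D_B12. The 3 D_C libraries other than D_C 1 exceeded every ND_C library, while D_C 1 was below all 4. Over all libraries 44 of 64 diabetic against non-diabetic pairs were higher in the diabetic library.

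Means of Slc5a3 were 57590 ± 14107 (SD, n = 4) in D_C, 46341 ± 5384 in ND_C, 45742 ± 9581 in D_B12 and 42487 ± 14833 in ND_B12, each step smaller than the larger SD beside it. The log2 fold change with diabetes was 0.31 (SE 0.21) in untreated and 0.10 (SE 0.21) in B12-treated kidneys. These were 0.46 (SE 0.21) and 0.032 (SE 0.21) when ND_B12 4 and D_C 1 were left out. Mrps6 averaged 4003 ± 771 (SD, n = 4) normalized counts in D_C, 3103 ± 263 in ND_C, 3056 ± 297 in ND_B12 and 2934 ± 122 in D_B12, so it too was highest in D_C. What part the shared bases have in the Slc5a3 values was not tested.

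Slc6a6 encodes the taurine transporter TauT, at chr6:91660573-91736047 on the plus strand. The annotation has 6 other genes overlapping it, 4 of them on the opposite strand, and while strand was assigned to alignments from intron motifs, whether counting used it is not given in the sources used here. Its normalized counts were 40280, 45171, 42397 and 48822 in ND_C 1 to 4, and 47815, 54230, 59195 and 71349 in ND_B12 1 to 4. They were 53090, 65790, 57305 and 50774 in D_C 1 to 4, and 36857, 43641, 67465 and 47173 in D_B12 1 to 4.

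The labelled groups of Slc6a6 differed in order between untreated and B12-treated kidneys, although the interaction of diabetes and B12 did not pass (edgeR adjusted p = 0.187). All 4 D_C libraries of Slc6a6 were above all 4 ND_C libraries, as were those of 4.86% of tested genes. In the treated groups 3 of 4 D_B12 libraries were below every ND_B12 library. The share of all genes with such a partial separation was not computed. Means were 58147 ± 9958 (SD, n = 4) in ND_B12, 56740 ± 6612 in D_C, 48784 ± 13169 in D_B12 and 44168 ± 3693 in ND_C, an order in which all neighbours overlapped. The log2 fold change with diabetes was 0.36 (SE 0.16) in untreated kidneys and -0.26 (SE 0.16) in B12-treated kidneys. Leaving out ND_B12 4 and D_C 1 gave 0.39 (SE 0.16) and -0.14 (SE 0.16). With the days since the first date in the library names as a covariate, the log2 fold change in B12-treated kidneys was -0.72 (SE 0.34).

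Nfat5, the factor itself, differed by a small amount. Normalized counts were 13933, 11796, 10697 and 11293 in ND_C 1 to 4, and 12494, 12172, 11407 and 11486 in ND_B12 1 to 4. They were 14980, 14063, 13066 and 14928 in D_C 1 to 4, and 15273, 12066, 12220 and 11933 in D_B12 1 to 4. In D_C, 3 of 4 libraries exceeded every ND_C library, and ND_C 1 stood above the remaining one. In D_B12 the first library was well above the other 3, which lay within the range of ND_B12.

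Means of Nfat5 were 14259 ± 900 (SD, n = 4) in D_C, 12873 ± 1604 in D_B12, 11930 ± 1409 in ND_C and 11890 ± 529 in ND_B12. Its log2 fold change with diabetes was 0.26 (SE 0.089) in untreated, 0.11 (SE 0.089) in B12-treated kidneys and 0.18 (SE 0.063) averaged over treatments. Over all libraries 55 of 64 diabetic against non-diabetic pairs were higher, and 40 of 49 without ND_B12 4 and D_C 1, where the averaged log2 fold change was 0.17 (SE 0.070). With days as a covariate it was 0.44 (SE 0.12). No date held diabetic libraries beside non-diabetic ones except the one shared by ND_B12 2, ND_B12 3, ND_B12 4 and D_C 1, so no difference within a date could be given with replicates on both sides.

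The counts of Nfat5 were divided among 13 of its 14 annotated transcripts. The coding transcript Nfat5-214 took 35.1% and the nonsense-mediated decay transcripts Nfat5-213 and Nfat5-206 took 21.2% and 17.8%. The share of decay transcripts ran from 7.77% in D_C 3 to 58.1% in ND_B12 4, with every group spanning a wide range, so the split among these long, overlapping transcripts was not stable between libraries. The share of retained-intron transcripts was steadier, at 6.27% to 8.08% in D_B12, 4.87% to 5.62% in D_C, 5.13% to 7.09% in ND_C and 4.11% to 5.31% in ND_B12. The share of all genes with such a difference in transcript classes was not computed, and nothing is read from these ranges.

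Vitamin B12 was compared within each state, a contrast the choice of the genes did not use. No member passed in edgeR's quasi-likelihood test with Benjamini-Hochberg adjustment over all genes. Among non-diabetic kidneys the log2 difference, B12 against control, was 0.40 for Slc6a6 (95% interval 0.066 to 0.74), with an edgeR p of 0.0218 and an adjusted p of 0.610. Of its 16 pairs, 15 were higher in the B12 library. For the other 3 the log2 difference was 0.31 for Slc6a12 (-0.98 to 1.59), -0.12 for Slc5a3 (-0.58 to 0.33) and -0.00018 for Nfat5 (-0.19 to 0.19). The value of Slc6a12 turned to -0.55 (SE 0.50) without ND_B12 4 and D_C 1. No gene at all was called in that comparison (0% of 25408 by edgeR, of which 1937 had an unadjusted p under 0.05, and 6 genes, or 0.0236%, by DESeq2).

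Among diabetic kidneys all 4 members had lower values with B12, none past the threshold. The log2 difference was -0.59 for Slc6a12 (95% interval -1.78 to 0.59, edgeR adjusted p = 0.701) and -0.33 for Slc5a3 (-0.79 to 0.13, adjusted p = 0.538). It was -0.22 for Slc6a6 (-0.55 to 0.12, adjusted p = 0.594) and -0.15 for Nfat5 (-0.33 to 0.042, adjusted p = 0.507). For each of the 4 genes, 2 to 4 of 16 pairs were higher in the B12 library. Without ND_B12 4 and D_C 1 the value of Slc6a12 was -0.88 (SE 0.42), with an edgeR adjusted p of 0.307. By edgeR 0% of genes were called (3468 at an unadjusted p under 0.05), against 681 genes, or 2.68%, by DESeq2, where none of the members was among them.

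The interaction asks whether the B12 difference differed between diabetic and non-diabetic kidneys. Slc6a6 had the lowest p of the 4, with a log2 interaction of -0.62 (95% interval -1.09 to -0.14), an edgeR p of 0.0138 and an adjusted p of 0.187. It was -0.53 (SE 0.23) without ND_B12 4 and D_C 1, with an edgeR adjusted p of 0.265. The log2 interaction was -0.90 for Slc6a12 (-2.65 to 0.85), -0.21 for Slc5a3 (-0.85 to 0.43) and -0.15 for Nfat5 (-0.41 to 0.12). No interaction passed for any gene by edgeR (0%, with 4093 at an unadjusted p under 0.05), and 923 genes, or 3.63%, passed by DESeq2, none of them a member (adjusted p of Slc6a6 by DESeq2 0.0793).

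**Figure D3:**
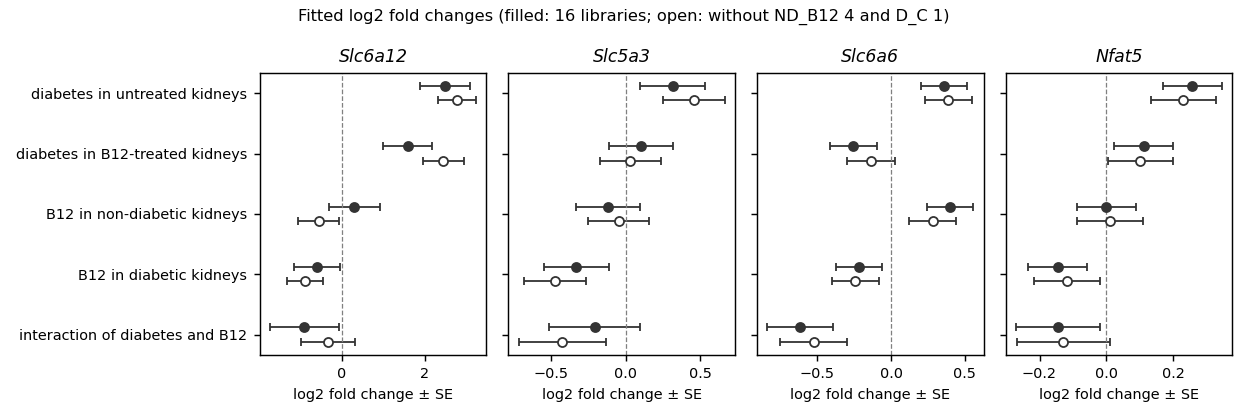
Fitted log2 fold changes of the 4 genes (horizontal axes, one scale per gene, with bars of 1 SE) in 5 contrasts, for all 16 libraries (filled) and without ND_B12 4 and D_C 1 (open). Slc6a12 stands at 2.49 and 1.59 with diabetes. Slc6a6 takes opposite signs with diabetes in untreated (0.36) and B12-treated (-0.26) kidneys, which holds for the labels only.

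The genes whose pattern was most like that of Slc6a12 were looked up over the 16 libraries and 16651 named genes, by Pearson's r of log2 CPM, as a description. They were Spag5, a mitotic spindle protein (r = 0.967), Aqp2, the vasopressin-regulated water channel of the collecting duct (0.941), and Aldoc, a glycolytic aldolase (0.922). Ranbp3l, a protein related to Ran-binding proteins, followed at 0.921 and Zdhhc14, a palmitoyltransferase, at 0.915. After group means were subtracted r was 0.932, 0.935, 0.908, 0.900 and 0.828, so these genes tracked Slc6a12 among libraries of the same label too. The libraries share depth and tissue makeup, and no p is given.

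Aqp2 and Slc6a12 had the same libraries at both ends of their range. Its normalized counts were 7904, 5335, 4197 and 6249 in ND_C 1 to 4, and 6593, 8907, 4054 and 13217 in ND_B12 1 to 4. They were 9356, 27158, 16916 and 23006 in D_C 1 to 4, and 20632, 11557, 10364 and 6943 in D_B12 1 to 4. ND_B12 4 was the highest non-diabetic library and D_C 2 the highest of all for both genes, and ND_B12 3 was the lowest of all for both. Spag5 had the same highest library and the same lowest one, at 515 and 75.9 normalized counts.

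**Figure D4:**
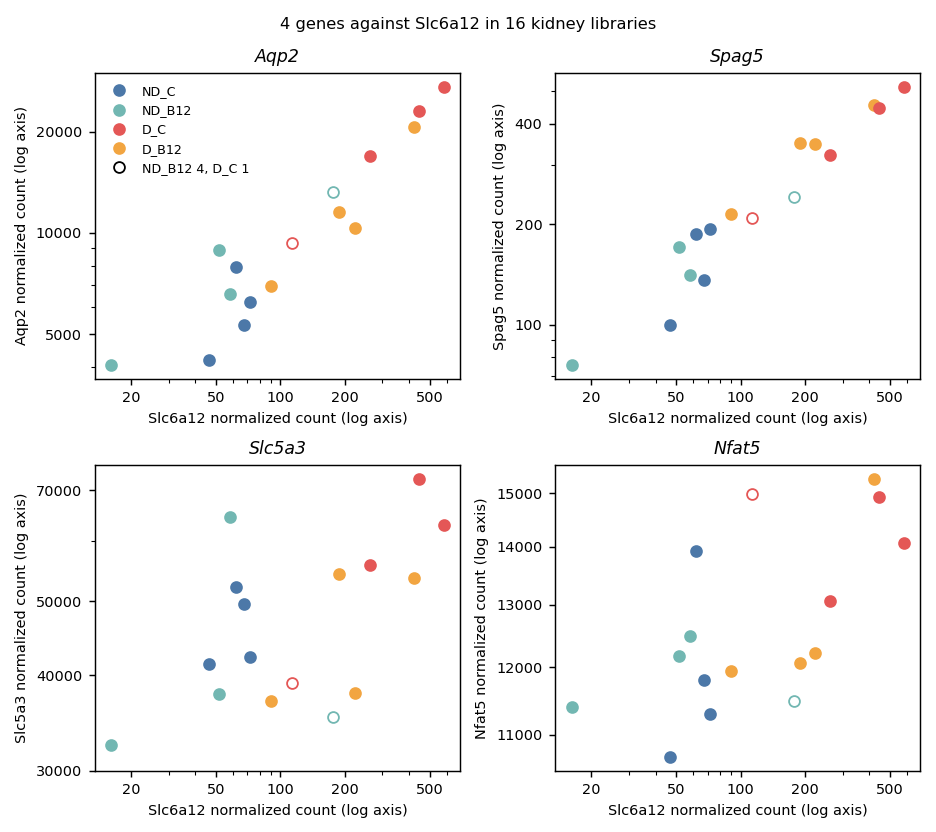
Normalized counts of Aqp2, Spag5, Slc5a3 and Nfat5 (vertical axes, log scale) against those of Slc6a12 (horizontal axes, log scale) in 16 libraries, colored by labelled group, with open circles for ND_B12 4 and D_C 1. Aqp2 and Spag5 (r of log2 CPM 0.941 and 0.967) lie close to a line, and Slc5a3 and Nfat5 scatter more widely.

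The other members followed other genes. The 3 genes closest to Slc5a3 were Pcsk6, a proprotein convertase (r = 0.865), Angpt2, a ligand of the vascular receptor Tie2 (0.849), and Enah, an actin regulator (0.846). Those closest to Slc6a6 were Tmem51 (0.922), Rassf3 (0.912) and Bnip3, a mitophagy receptor (0.896). Those closest to Nfat5 were Nav1 (0.893), Fam174b (0.891) and Hoxb9, a homeobox gene (0.888). None of the 4 genes was among the closest of another, and r with Slc6a12 was 0.563 for Slc5a3, 0.626 for Nfat5 and 0.168 for Slc6a6.

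Because diabetic and non-diabetic libraries differed in Slc6a12, the relations among members were tested within each set of 8 libraries, 6 relations in all. Each set held untreated and B12-treated libraries, which were permuted together, so a difference between those groups enters r and p. Over all 16 libraries r of Slc5a3 with Slc6a12 was 0.563, and 0.492 after group means were subtracted. Among diabetic libraries the relation of Slc5a3 to Slc6a12 had r = 0.83 (exact permutation p = 0.0147, adjusted p = 0.0881, n = 8) and rho = 0.81 (exact permutation p = 0.0218, adjusted p = 0.131), a relation that did not pass after adjustment. Without the 2 libraries farthest from the median r was 0.73. For Nfat5 in diabetic libraries r was 0.50 and rho 0.50 (exact permutation p = 0.197 and 0.216, adjusted p = 0.591 and 0.649), and r was 0.29 without the 2 farthest libraries. For Slc6a6 it was 0.12 (rho 0.21, exact permutation p = 0.769 and 0.619, adjusted p = 0.803 and 0.793), and -0.35 without the 2 farthest. Among non-diabetic libraries r was 0.18 for Slc5a3, 0.23 for Slc6a6 and 0.11 for Nfat5, with exact permutation p of 0.706, 0.590 and 0.803 and an adjusted p of 0.803 for each. The corresponding rho was 0.24, 0.12 and 0.12 (exact permutation p = 0.582, 0.793 and 0.793, each 0.793 adjusted), and r without the 2 farthest libraries was 0.26, 0.0067 and 0.22. Without ND_B12 4 and D_C 1, r of Nfat5 with Slc6a12 among the 7 other diabetic libraries was 0.85 (exact permutation, adjusted p = 0.0893) and that of Slc5a3 was 0.79 (adjusted p = 0.105). Among the 7 other non-diabetic libraries r was 0.66 for Slc5a3 (exact permutation, adjusted p = 0.190), -0.65 for Slc6a6 (adjusted p = 0.190) and 0.29 for Nfat5 (adjusted p = 0.560).

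Markers of collecting duct principal cells were looked at beside Slc6a12. Summed over Aqp2, Aqp3, Avpr2, Scnn1b, Scnn1g and Fxyd4 they came to 178 to 341 CPM (median 225) in non-diabetic and 226 to 534 CPM (median 355) in diabetic libraries, with ND_B12 4 the highest non-diabetic library. In untreated kidneys 2 of the 6, Aqp2 and Aqp3, were called higher with diabetes by edgeR, which called 1.66% of all genes there. The median log2 fold change over the 6 was 0.42. In B12-treated kidneys none was called by edgeR (0.823% of all genes were) and 1 had an unadjusted p under 0.05. There 2 had higher and 4 lower values, and the median was -0.052. Without Aqp2 the sums overlapped broadly, at 126 to 180 CPM in non-diabetic and 138 to 201 CPM in diabetic libraries. Per 1000 counts of the 5 markers other than Aqp2, Slc6a12 had a median of 5.30 counts (1.40 to 12.0) in non-diabetic and 17.9 (8.20 to 36.6) in diabetic libraries. For Nfat5 those medians were 1002 and 1007, for Slc5a3 3716 and 3759, and for Slc6a6 4186 and 3895. Per 1000 counts of all 6 markers the medians in non-diabetic and diabetic libraries were 3.23 and 9.06 for Slc6a12, 702 and 476 for Nfat5, 2546 and 1769 for Slc5a3, and 2629 and 1784 for Slc6a6. Summed endothelial markers were 186 to 253 CPM (median 216) in non-diabetic and 216 to 282 CPM (median 255) in diabetic libraries. Macrophage markers came to 46.7 to 79.1 CPM (median 73.4) in non-diabetic and 49.3 to 73.8 CPM (median 53.5) in diabetic libraries. Their lowest non-diabetic library was ND_B12 4 and their highest diabetic library D_C 1. Averaged over treatments all 5 macrophage markers had lower values with diabetes. Of these edgeR called 1, C1qa, beside 3.02% of all genes. The adipocyte markers varied from 0.0545 to 127 CPM without following the labels. What part the mix of kidney regions has in the Slc6a12 values was not tested.

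Of 16 NFAT5 target genes, edgeR called Aqp2 alone and DESeq2 called Aqp2, Cryab and Ranbp3l with diabetes in untreated kidneys, where they called 1.66% and 6.31% of all tested genes. It was higher by 1.69 on the log2 scale (SE 0.39, edgeR adjusted p = 0.0436), with a median of 0.21 over the 16 genes and -0.0034 over all genes. In B12-treated kidneys no target was called (0.823% of all genes were), 2 had an unadjusted p under 0.05 and 1, Pnpla6, was called by DESeq2 (4.51% of all genes). Averaged over treatments, where edgeR called 3.02% and DESeq2 7.21% of all genes, DESeq2 called Aqp2, Cryab, Pnpla6 and Ranbp3l and edgeR called Aqp2 (log2 fold change 1.14, SE 0.27, edgeR adjusted p = 0.0348). For Ranbp3l the value in untreated kidneys was 0.71 (SE 0.20, edgeR adjusted p = 0.0782). Without ND_B12 4 and D_C 1, Aqp2 (1.91), Ranbp3l (0.83) and Cryab (0.85) were called in untreated kidneys. Cryab, a small heat shock protein, was named after its value was seen. The edgeR adjusted p was 0.00531, 0.0158 and 0.0464 in that order, in a setting where edgeR called 2127 of 24831 genes. With all 16 libraries edgeR called 423 of 25408.

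Aldose reductase, listed as Akr1b1 and named after its values were seen, varied widely within groups. Its normalized counts were 2837 to 7832 in D_C, 2095 to 7066 in D_B12, 2210 to 3457 in ND_C and 2197 to 4154 in ND_B12. The log2 fold change with diabetes was 0.77 (SE 0.37, edgeR adjusted p = 0.274) in untreated kidneys and 0.21 (SE 0.37, edgeR adjusted p = 0.822) in B12-treated kidneys. The groups overlapped in both states.

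Of 19 genes of osmolyte metabolism, 2 were called by edgeR in untreated kidneys (1.66% of all genes were) and their directions differed. Isyna1, which makes inositol phosphate from glucose 6-phosphate, rose by 0.50 on the log2 scale (SE 0.12, edgeR adjusted p = 0.0469). Miox, the proximal tubule enzyme that degrades myo-inositol, fell by 0.56 on the log2 scale (SE 0.13, edgeR adjusted p = 0.0443). Its mean was 63424 ± 6406 normalized counts (SD, n = 4) in ND_C and 43163 ± 10056 in D_C. Averaged over treatments, where 3.02% of all genes were called, Miox fell by 0.52 (SE 0.091, edgeR adjusted p = 0.0121) and Fmo1, a flavin monooxygenase that makes taurine from hypotaurine, fell by 0.16 (SE 0.042, edgeR adjusted p = 0.0467). Proximal tubule markers moved the same way, Slc34a1 and Kap being called lower, 2 of 5. In B12-treated kidneys no gene of the list passed by edgeR, 5 had an unadjusted p under 0.05, and 3 passed by DESeq2 (4.51% of all genes did). Without ND_B12 4 and D_C 1, edgeR called Bhmt, Isyna1, Miox and Sardh in untreated and Bhmt and Miox in B12-treated kidneys. Averaged, it called Bhmt, Cdipt, Fmo1, Gdpd5, Isyna1 and Miox. That setting had 2127, 695 and 2531 calls of 24831 genes. Normalized counts of Bhmt were 642 in ND_B12 4 and 176 in D_C 1. Other libraries held 116 to 230 if non-diabetic and 310 to 601 if diabetic. Upward, 1.19% of tested genes were so separated.

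Of 11 other osmolyte carriers tested, edgeR called 1 in untreated kidneys, 1 in B12-treated kidneys and 2 averaged over treatments, beside 1.66%, 0.823% and 3.02% of all genes. The medians of the list were 0.027, -0.044 and 0.0043 on the log2 scale. Slc44a2, a choline transporter-like protein, was called higher with diabetes in untreated kidneys (log2 fold change 0.36, SE 0.087, edgeR adjusted p = 0.0485). Slc6a20a, an imino acid carrier, was called lower in B12-treated kidneys, where it fell by 0.38 (SE 0.079, edgeR adjusted p = 0.0418). Averaged over treatments Slc6a20a fell by 0.22 and Slc6a20b by 0.24 (edgeR adjusted p = 0.0465 and 0.0178). Without ND_B12 4 and D_C 1, edgeR called Slc44a2 and Slc6a20b in untreated kidneys and Slc6a20a and Slc6a20b in B12-treated kidneys. Averaged, it called Slc5a11, Slc44a2, Slc6a20a and Slc6a20b. Over all genes that setting had 2127, 695 and 2531 calls of 24831.

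The 5 subunits of the volume-regulated anion channel, through which osmolytes leave swollen cells, were not called in any of the 3 diabetes contrasts, either by edgeR or by DESeq2, which called 6.31% of all genes in untreated kidneys. Of the 5, 1 had an unadjusted p under 0.05 in untreated kidneys, 0 in B12-treated kidneys and 2 averaged over treatments. Their log2 fold changes averaged over treatments were 0.092 for Lrrc8a, 0.17 for Lrrc8b, 0.18 for Lrrc8c, 0.033 for Lrrc8d and 0.51 for Lrrc8e. Without ND_B12 4 and D_C 1, Lrrc8a (0.21), Lrrc8b (0.25) and Lrrc8c (0.27) were called averaged over treatments. The edgeR adjusted p was 0.0172, 0.0095 and 0.0415, in a setting where edgeR called 2531 of 24831 genes. With all 16 libraries edgeR called 767 of 25408. Among 19 regulators and relatives of NFAT5, such as the p38 kinase Mapk14, none was called by edgeR with diabetes over all 16 libraries. In each contrast 1 or 2 had an unadjusted p under 0.05, and DESeq2 called Mapk14 averaged over treatments (7.21% of all genes). Without ND_B12 4 and D_C 1, edgeR called Dhx9 averaged over treatments, where it called 2531 of 24831 genes.

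With B12, none of the 70 tested genes of these lists was called by edgeR in non-diabetic kidneys, in diabetic kidneys or for the interaction, with 4, 13 and 15 genes at an unadjusted p under 0.05. DESeq2 called 0, 4 and 1 of them, beside 0.0236%, 2.68% and 3.63% of all genes. The 4 in diabetic kidneys were Nfatc2, Slc36a1, Slc44a1 and Slc44a2. In diabetic kidneys the edgeR log2 difference of Slc44a2 was -0.32 (SE 0.087, edgeR adjusted p = 0.131) and that of Slc44a1 was -0.25 (SE 0.073, edgeR adjusted p = 0.153), both choline transporter-like proteins, choline being the precursor of betaine. With days as a covariate no gene of the lists was called with diabetes in any of the 3 contrasts. In that setting edgeR called 2 of 25408 genes in untreated kidneys, 29 in B12-treated kidneys and 0 averaged over treatments.

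**Figure D5:**
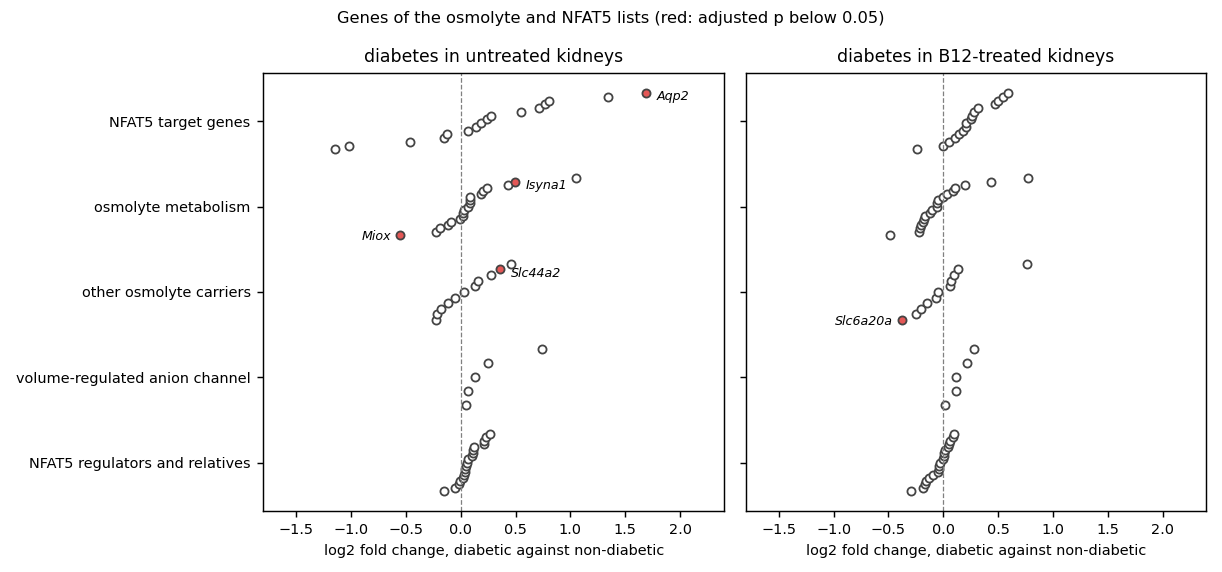
Log2 fold change with diabetes (horizontal axes) of each tested gene of 5 lists (rows) in untreated (left) and B12-treated (right) kidneys, with called genes in red and named. Aqp2 (1.69), Isyna1, Miox and Slc44a2 are called in untreated kidneys and Slc6a20a in B12-treated kidneys.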

How the data were processed

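Whole-kidney total RNA of 16 mice was sequenced as paired 50 bp reads. Per the submitters' notes and the study's methods the authors made the reads with bcl2fastq 2.20.0, aligned them with STAR to GRCm39 and assembled them with StringTie on GENCODE vM35. The deposited gene and transcript tables hold estimated counts that StringTie derives from coverage, written as whole numbers (expected counts), so a transcript's count is a model's share. Strand was assigned to alignments from intron motifs, and whether counting used it is not given in the sources used here.

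Groups followed the sample labels. Genes with at least 100 counts in all were fitted in edgeR 4.0.16 (R 4.3.3) with TMM scaling, a mean per group over all 16 libraries and the quasi-likelihood test, with Benjamini-Hochberg adjustment over 25408 genes and calls at 0.05. DESeq2 1.42.0 was an alternative. On counts simulated for B12 in diabetic kidneys (25126 genes, 200 changed by 1 on the log2 scale) edgeR recovered 181, with 7.18% false calls, and DESeq2 188, with 19.7%. The changed genes were drawn, in 1 run, from genes averaging over 200 counts. Smaller differences, and differences in genes with fewer counts, were not simulated. Normalized counts use DESeq2's size factors. TPM came from transcript counts and GENCODE vM39 lengths, leaving out transcripts without a length there. Correlations used scipy 1.17.1 on log2 CPM with a prior count of 2, with exact two-sided permutation tests.

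Members and lists were chosen with earlier results of these data known. Named genes were the 4 members, list genes called in a contrast (at most 6 per list and contrast by fold), all genes of lists of 12 or fewer, and the 5 genes closest to Slc6a12 and 3 closest to each other member. Akr1b3 was matched to Akr1b1 through RefSeq synonyms. Alternatives were DESeq2, other scaling and filters, a replicate block, days as a covariate, the compared groups alone, and leaving out libraries. Marker lists without a value in the text are not reported here.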

Additional observations from a re-analysis of the deposited data

Results flagged for a closer look

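Among the 4 libraries of a group, a library standing far from the other 3 was looked for in 16 sets of 4 values, the 4 genes in each group. The limit was Dixon's critical value for 4 samples, and chance alone marks about 1 in 20 such sets. Slc5a3 in ND_B12 1 was 64488 normalized counts, with its gap to the nearest library at 0.831 of the group's range. Nfat5 in D_B12 1 was 15273 normalized counts, with its gap at 0.914 of the range. D_B12 1 also had the highest Slc6a12 of its group, 420 normalized counts, and Slc5a3 there was 53665, beside 54391 in D_B12 2.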

How the results depend on the processing

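No member passed the threshold for B12 or the interaction under any alternative. The adjusted p of the Slc6a6 interaction ranged from 0.0622 to 0.336. With days as a covariate, which largely coincides with group, the log2 difference of Nfat5 with diabetes was 0.44 in untreated kidneys, 0.45 in B12-treated kidneys and 0.44 averaged, that of Slc6a6 was -0.72 in B12-treated kidneys and -0.29 averaged, and those of Nfat5 with B12 turned to 0.080 in diabetic kidneys, 0.068 in non-diabetic kidneys and 0.012 for the interaction. The Nfat5 difference with B12 in non-diabetic kidneys, near 0 throughout, was also above 0 without a filter beyond 1 count (0.0012) and without ND_B12 4 and D_C 1 (0.011). Leaving out those 2 libraries turned Slc6a12 with B12 in non-diabetic kidneys to -0.55 and the correlation of Slc6a6 with Slc6a12 in non-diabetic libraries to -0.65. The cause was not tested.

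Leaving out each library in turn gave these ranges of log2 differences with diabetes. In untreated kidneys they were 2.12 to 2.77 for Slc6a12, 0.18 to 0.45 for Slc5a3, 0.28 to 0.41 for Slc6a6 and 0.21 to 0.33 for Nfat5. In B12-treated kidneys they were 1.14 to 2.44 for Slc6a12 (2.44 without ND_B12 4), -0.0061 to 0.38 for Slc5a3 (0.38 without ND_B12 1), -0.46 to -0.13 for Slc6a6 (-0.46 without D_B12 3) and 0.033 to 0.15 for Nfat5 (0.033 without D_B12 1). Averaged they were 1.81 to 2.47, 0.15 to 0.34, -0.047 to 0.11 and 0.14 to 0.23 in the same order of genes. With B12 in diabetic kidneys they were -1.04 to -0.23, -0.46 to -0.19, -0.42 to -0.090 and -0.23 to -0.10. With B12 in non-diabetic kidneys they were -0.55 to 0.63 (-0.55 without ND_B12 4), -0.39 to -0.010 (-0.39 without ND_B12 1), 0.29 to 0.49 and -0.048 to 0.075. For the interaction they were -1.33 to -0.042 (-0.042 without ND_B12 4), -0.33 to 0.062 (0.062 without ND_B12 1), -0.82 to -0.48 and -0.22 to -0.097.

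The numbers of list genes called with diabetes were 4 in untreated kidneys, 1 in B12-treated kidneys and 5 averaged. They were 7, 6 and 12 with DESeq2 and 0, 0 and 2 with no filter beyond 1 count. With days they were 0, 0 and 0, and without ND_B12 4 and D_C 1 they were 9, 4 and 17. Over all genes edgeR called 423, 209 and 767 of 25408 in the main fit and DESeq2 1603, 1146 and 1832. With no filter beyond 1 count 63, 35 and 427 of 40826 were called, and with days 2, 29 and 0 of 25408. Without ND_B12 4 and D_C 1 the calls over all genes were 2127, 695 and 2531 of 24831. Upper-quartile scaling left 0 list genes in B12-treated kidneys, where it called 18 of 25408 genes in all. With single libraries left out the numbers of list genes ran from 0 to 8, 0 to 2 and 2 to 11. The 11 came without D_C 1, where 1700 of 25045 genes in all were called averaged over treatments. For B12 in diabetic kidneys 4 list genes were called by DESeq2, 1 with days and 1 without ND_B12 4 and D_C 1. With single libraries left out 0 to 1 were called. For the interaction these numbers were 1, 1, 1 and 0 to 1. Over all genes DESeq2, days and the fit without ND_B12 4 and D_C 1 gave 681, 204 and 216 calls in diabetic kidneys. They gave 923, 753 and 87 for the interaction. For B12 in non-diabetic kidneys the number of list genes stayed at 0.

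Same-numbered libraries of different groups correlated at -0.18 to 0.17 in their deviations from the group means, so the numbers were not taken as pairs. With the replicate number as a block, the averaged log2 difference with diabetes was 2.16 for Slc6a12, that of Nfat5 with B12 in non-diabetic kidneys was 0.0060, and 0, 0 and 3 list genes were called with diabetes in untreated kidneys, in B12-treated kidneys and averaged. Over all genes that block left 269, 25 and 478 of 25408 called with diabetes in the same 3 contrasts. Of 16 libraries, 5 had their closest library of another group under their own number. Levels of the members moved by less than 1 SD with TMM scaling or summed transcript counts. The low counts of Slc6a12 limit its precision.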
